A study of Homo sapiens with 9 samples.

Results

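TFRC, FTL and FTH1 encode the main proteins of iron uptake and iron storage, namely the transferrin receptor and the light and heavy chains of ferritin. Their small RNAs were taken as all listed alignments on the sense strand that lie within TFRC (chr3:195776155-195809032, minus strand), FTL (chr19:49468566-49470136, plus strand) and FTH1 (chr11:61731757-61735132, minus strand) on GRCh37 (hg19). This gave 958 of 3,688,019 alignments in the table, and 3 of 20,163 protein-coding genes. TFRC had 405 of these alignments, FTL had 421 and FTH1 had 132.

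The study profiled small RNAs of K562, an erythroid-like cell line derived from a chronic myelogenous leukemia, and later overexpressed selected small RNAs to look for effects on cell growth. The values used here come from 3 batches of untreated, unmodified K562 cells that were pooled in 1 table, so there is no replicate error, no comparison between conditions and no test across samples. The 6 samples of HEK293 cells in the series were not analysed here. Intervals below are 95% intervals, exact Poisson for reads per kb and Wilson for shares, and they cover counting error only, as the reads carry no molecular identifiers.

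Cells take up iron by endocytosis of transferrin bound to its receptor, and store what they do not use inside shells built of ferritin light and heavy chains. Both processes are controlled on the mRNA through the iron-responsive element, a short hairpin with a CAGTGN loop that iron regulatory proteins bind when iron is scarce. Binding in the 5′ UTR of the ferritin mRNAs blocks their translation, whereas binding in the 3′ UTR of the TFRC mRNA protects it from decay. Erythroid cells need much iron for heme, and the ferritin genes are also known for their many processed pseudogenes, which are intronless copies of the mRNA inserted elsewhere in the genome.

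The iron-responsive elements of the members are shown first because the small RNAs were mapped relative to them. They were found by a pattern in the spliced UTRs (a C, 5 nt, CAGTG followed by A, C or T, and 5 nt, with at least 4 of 5 stem pairs), and each is given as a window of 29 nt with the 6 nt of the loop in capitals.
TFRC element 1 (3′ UTR, chr3:195777850-195777878, minus strand): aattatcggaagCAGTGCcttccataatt
TFRC element 2 (3′ UTR, chr3:195777446-195777474, minus strand): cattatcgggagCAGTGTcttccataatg
TFRC element 3 (3′ UTR, chr3:195777381-195777409, minus strand): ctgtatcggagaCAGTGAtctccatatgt
TFRC element 4 (3′ UTR, chr3:195777334-195777362, minus strand): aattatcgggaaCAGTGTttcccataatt
FTL element (5′ UTR, chr19:49468592-49468620, plus strand): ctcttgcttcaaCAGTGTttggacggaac
FTH1 element (5′ UTR, chr11:61735046-61735074, minus strand): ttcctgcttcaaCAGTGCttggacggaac

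The 4 elements found in TFRC lie in exon 20 of the transcript used here, and those found in FTL and FTH1 lie in exon 1. The pattern had a match in 634 genes, or 3.20% of 19,812 transcripts searched, of which 69 genes had it in the 5′ UTR, and TFRC was the 1 gene with 4 matches. A match is a description of the sequence and not proof of a working element. An element with another loop sequence or a weaker stem is missed by the pattern. The numbers of elements and the shares of reads at them therefore cover matched elements only.

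The small RNAs that carried the most reads of each gene are shown next, with a loop or the stop codon in capitals where the fragment holds it. Reads are given after removal of a multiplicity in the deposited counts, and are called reads from here on: each deposited count was divided by how many alignments of the table, itself included, share the strand and lie within a summed shift of 3 nt at both ends, a division that left no remainder.
TFRC 26–43 (5′ UTR, chr3:195808919-195808936): ctcgggacggaggacgcg
TFRC 3863–3883 (element 3, chr3:195777389-195777409): ctgtatcggagaCAGTGAtct
FTL 582–601 (CDS, chr19:49469847-49469866): acttcctggagactcacttc
FTL 381–406 (CDS, chr19:49469106-49469131): agggctacgagcgtctcctgaagatg
FTL 716–734 (stop codon, chr19:49469981-49469999): aagcacgacTAAgagcctt
FTH1 708–731 (CDS, chr11:61732229-61732252): gcggaatatctctttgacaagcac
FTH1 753–770 (stop codon, chr11:61732190-61732207): gaaagcTAAgcctcgggc

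The numbers after the gene are positions on its spliced mRNA. TFRC 26–43 had 20 reads (deposited RPKM 82.1) and TFRC 3863–3883 had 5 reads (RPKM 13.2). FTL 582–601 had 21 reads (RPKM 252), and FTL 381–406 and FTL 716–734 had 17 reads each (RPKM 72.5 and 215). FTH1 708–731 had 6 reads (RPKM 32.3) and FTH1 753–770 had 2 reads (RPKM 4.10). These fragments are among the 5 with most reads of each gene at 18 nt or longer. Over alignments of all lengths, most were rarer still, with 1 read in 76.8% of TFRC, 61.8% of FTL and 84.8% of FTH1 alignments.

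FTL, the light chain of ferritin, gave the most small RNA of the 3 genes. Over alignments of 18 nt or longer that lie wholly in annotated exons, FTL had 766 reads per kb of exon (709–826, 667 reads), FTH1 had 58.9 (48.7–70.5, 118 reads) and TFRC had 20.4 (18.4–22.7, 355 reads). The intervals of the 3 genes did not overlap. The median of all protein-coding genes was 1.17 reads per kb, and FTL ranked 31st, FTH1 203rd and TFRC 724th, so that 99.8%, 99.0% and 96.4% of genes were lower. The genes next to FTL in this order were RPL4 (891 reads per kb), EML2 (791), RPL13 (749) and HSPA9 (743), of which RPL4, a ribosomal protein gene, had an interval (866–916) that did not overlap that of FTL. The neighbours of FTH1 were DDIT3 (58.9), ENSG00000260342 (58.9), H2AC14 (58.8) and RPS18 (58.3), and those of TFRC were MARCO (20.5), EDF1 (20.5), C6orf62 (20.4) and TPI1 (20.4). The intervals of these 8 genes, and those of EML2, RPL13 and HSPA9, overlapped that of their member. Alignments at annotated microRNAs and snoRNAs within exons were not removed from these counts, whereas the paper removed them from its unannotated small RNAs. The ranks and neighbours may therefore set mRNA fragments beside known small RNAs of other genes, and how far they do was not tested.

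The value of TFRC depends on which exons are counted. The annotation gives TFRC 17.376 kb of exon over all transcripts, part of it beyond the range used to choose the alignments, and the chosen transcript of 5113 nt had 281 reads, or 55.0 per kb (48.7–61.8). For FTH1 the chosen transcript of 1203 nt had 106 reads, or 88.1 per kb (72.1–107), and for FTL both measures were the same.

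**Figure D1:**
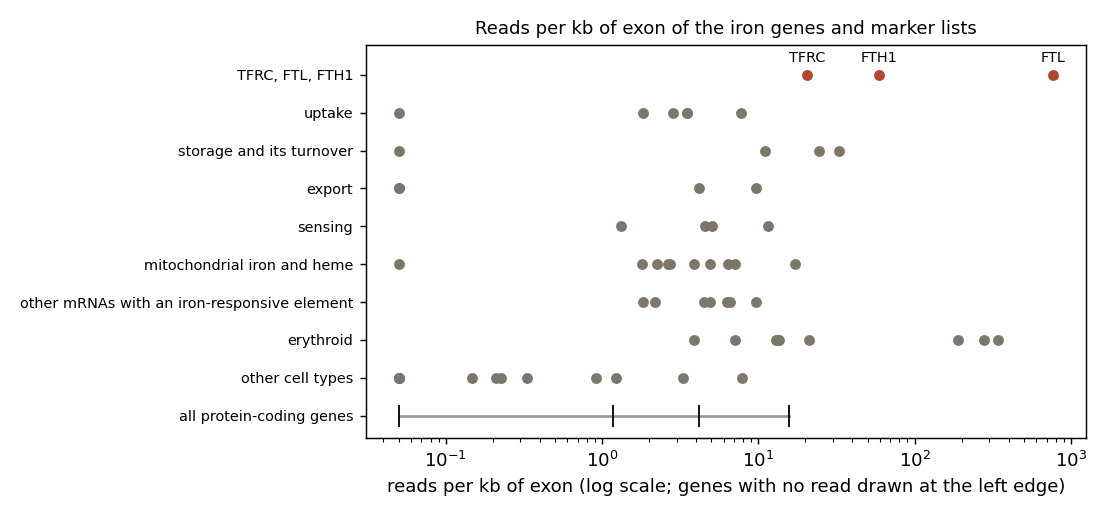
Reads per kb of exon on a log axis for TFRC, FTH1 and FTL (top row), for lists of iron, erythroid and other cell type genes (1 point a gene), and for all protein-coding genes (ticks at the 25th, 50th, 75th and 95th percentiles). TFRC (20.4), FTH1 (58.9) and FTL (766) lie above the 95th percentile of 15.8.

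Almost all of this RNA was from the sense strand. TFRC had 355 sense reads and 1 antisense read in exons, FTL had 667 and 0, and FTH1 had 118 and 0, where a count of 0 allows up to 3 reads. All 3 genes had at least 2-fold more sense than antisense reads, as did 84.3% of genes with at least 10 reads, so this share is near the background. Exons also held more than introns. The density in exons was 20.4 against 1.89 reads per kb in introns of TFRC, 766 against 18.6 in FTL and 58.9 against 1.69 in FTH1, and a 2-fold excess was found in 3 of 3 members and in 63.9% of genes tested. With the chosen transcripts, the exons had 55.0 and the introns 5.71 reads per kb in TFRC, and 88.1 and 5.59 in FTH1. Within the ranges used to choose the alignments, BEST1 lies on the opposite strand over part of FTH1 and RNU7-18P on the opposite strand of TFRC. In these ranges no other gene overlaps a member on its own strand. Annotated exons beyond these ranges were not searched for other genes.

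Fragments of the 3 mRNAs were distributed differently. In TFRC the 5′ UTR had 563 reads per kb (402–767), against 46.9 (38.6–56.4) in the CDS, and the 3′ UTR had 48.6 (40.6–57.8). In FTL the 5′ UTR had 603 reads per kb (500–721), the CDS 862 (784–945) and the 3′ UTR 639 (515–784). In FTH1 the 5′ UTR had 57.4 reads per kb (29.7–100.3), the CDS 168 (136–206) and the 3′ UTR 2.26 (0.0573–12.6), the last from 1 read. Both ferritin mRNAs were thus densest in the CDS and TFRC in the 5′ UTR. A 2-fold excess of 5′ UTR over CDS was found in 1 of 3 members and in 58.5% of genes with at least 10 reads, and a 2-fold excess of 3′ UTR over CDS in 0 of 3 members and in 15.9% of such genes.

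The excess in TFRC came from its first exon. Exon 1, of 48 nt, had 39 of 281 reads, whereas exons 14 to 17 had 0 reads and exon 20, with the 3′ UTR, had 133. On the chosen transcript, the fragments of exon 1 formed the largest cluster of overlapping alignments in TFRC (39 reads). Coverage was highest at position 29 of this mRNA. Over all annotated exons of TFRC, 291 of 355 reads remained without the largest cluster, so that cluster held more reads. Coverage of the rest of TFRC was broad and shallow, with 71 separate clusters over 2249 of 5113 nt.

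FTL was covered over 87.0% of its 871 nt, in 7 clusters. Its coverage was highest at position 584 (121 reads), and 61 reads (9.15%) shared the 3′ end at position 601. The stop codon was held whole by 118 of 667 FTL reads, by 8 of 106 FTH1 reads and by 0 of 281 TFRC reads. In FTH1 coverage was highest at position 713 (38 reads), and 19 of 106 reads (17.9%) began at position 708. The cluster around this point (positions 674–772) held 46.2% of FTH1 reads. The median length of fragments was 21 nt in TFRC, 21 nt in FTL and 22 nt in FTH1.

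Sequence shared with pseudogenes bears on the ferritin values. Of all stretches of 20 nt, 96.1% in TFRC had 1 exact match in the genome, against 26.3% in FTL and 30.3% in FTH1, and 4.04% in the CDS of FTH1. According to the methods only uniquely mapping reads were kept, yet 371 of 667 FTL reads and 59 of 106 FTH1 reads had a sequence with more than 1 exact match, as had 2 of 281 TFRC reads. The same sequence was also listed with reads at several loci. FTL 582–601 had 21 reads at the gene and 15 at FTLP3, and FTL 381–406 had 17 at the gene, 13 at FTLP3 and 12 at FTLP2. Why such reads were kept was not tested.

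Of 23 processed pseudogenes of FTH1, 17 held reads, 385 in all, led by FTH1P10 (61 reads), FTH1P11 (40) and FTH1P20 (37). Of these 385 reads, 384 had a sequence that also stands in the FTH1 mRNA. Of 16 pseudogenes of FTL, 7 held 388 reads, led by FTLP3 (257), FTLP2 (105) and FTLP5 (10), and 381 of them matched the FTL mRNA. No processed pseudogene of TFRC was found in the annotation.

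When every read with the sequence of the mRNA was counted, at whatever locus it was listed, FTL had 1171 reads, of which 667 were at the gene, 381 at annotated pseudogenes and 123 elsewhere. FTH1 had 579 reads, of which 106 were at the gene, 384 at annotated pseudogenes and 89 elsewhere. TFRC had 295 reads, of which 281 were at the gene. For TFRC this count used the MANE Select transcript of 5012 nt, on which the reads at the gene gave 56.1 per kb. The density was then 1344 reads per kb for FTL (1269–1424), 481 for FTH1 (443–522) and 58.9 for TFRC (52.3–66.0), so that FTH1 was 5.46-fold above its value at the gene, FTL 1.76-fold and TFRC 1.05-fold. The order of the 3 genes was kept. A read with a shared sequence cannot be told apart by its locus, and which gene it came from was not tested.

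Some of these reads ran across a junction of exons, where the gene itself has an intron and the intronless copies do not. They numbered 107 of 579 in FTH1 (18.5%), 79 of 1171 in FTL (6.75%) and 6 of 295 in TFRC (2.03%). In FTH1 the 3 junctions had 33, 38 and 36 reads, and in FTL 22, 35 and 22. A read was counted at the gene only when it lay wholly within an exon. Reads across a junction could therefore not be counted at the gene, and their shares rest on other loci. The fragments of FTH1 with most reads over all loci are shown because they were rare or absent at the gene.
FTH1 423–444 (CDS): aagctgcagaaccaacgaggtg
FTH1 595–614 (CDS, across exons 3 and 4): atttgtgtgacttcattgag
FTH1 282–304 (CDS): atcaacctggagctctacgcctc
FTH1 44–64 (element, loop in capitals): aCAGTGCttggacggaacccg

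FTH1 423–444 had 13 reads, of which 2 were at the gene. FTH1 595–614 had 9 reads, of which 0 could be at the gene as it crosses a junction. FTH1 282–304 had 7 reads, of which 0 were at the gene, and FTH1 44–64 had 6, of which 1 was at the gene. Over all loci the FTH1 5′ UTR had 306 reads per kb (236–391), the CDS 870 (794–951) and the 3′ UTR 79.2 (55.2–110). Coverage in the 3′ UTR was highest at position 874, with 32 reads over all loci and 1 at the gene. Of the 35 reads in the 3′ UTR over all loci, 31 were listed outside the gene and its annotated pseudogenes, 3 at pseudogenes and 1 at the gene. In FTL the 5′ UTR had 905 reads per kb (777–1047), the CDS 1614 (1507–1726) and the 3′ UTR 965 (811–1140). The CDS thus was the densest element of both ferritin mRNAs with either way of counting.

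Reads that overlap an iron-responsive element made up 13.2% of FTL mRNA reads (10.8–16.0, 88 of 667), 8.49% of FTH1 reads (4.53–15.4, 9 of 106) and 5.69% of TFRC reads (3.53–9.05, 16 of 281). The FTL share was 4.65% when at least 15 nt had to be shared with the window, and the FTH1 share was 0% over sequences with 1 exact match and 0% over alignments of at least 2 reads. The FTH1 window has 7 exact matches in the genome, so a sequence within it cannot pass the filter for 1 match. Over all loci the shares were 10.9% in FTL (9.27–12.8), 9.50% in FTH1 (7.37–12.2) and 5.42% in TFRC (3.37–8.63), where the windows take up 3.33%, 2.41% and 2.31% of the mRNA. As a read of about 20 nt reaches a window from outside it, these shares exceed the share of length even with even coverage, and coverage is the closer measure. Mean coverage over the element was 35.7 reads in FTL, against 17.0 over the whole mRNA, and 5.07 against 1.98 in FTH1. In other genes with a match to the pattern, 151 of 36,344 mRNA reads (0.415%) overlapped it, in 37 genes. This share rests on few genes, named here after their values were seen: NDE1 held 24,590 of the reads with 0 at its match, and the share was 1.28% (151 of 11,754) without it, while CTNNA2 (56) and CCDC116 (27) held 83 of the 151 reads. For these other genes, coverage over the match and the share of mRNA length in the window were not computed. Their pooled share therefore cannot be compared directly with those of the members.

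Each of the 4 elements found in TFRC held few reads. Element 1 had 1 read, element 2 had 2, element 3 had 8 and element 4 had 5. Mean coverage over element 3 was 5.34 reads, against 1.19 over the whole mRNA, and it was 1.97 over element 4, 0.690 over element 1 and 0.655 over element 2. At element 3, 7 of 8 reads held the whole loop, and 5 of them were the single fragment TFRC 3863–3883, which begins with the first base of the window printed above. Element 3 rests on 4 alignments. With so few reads, the differences among the 4 elements are not resolved at this depth.

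At the FTL element, 42 of 88 reads ended before the loop, 25 held the whole loop, 10 began after it and 1 spanned the whole window. At the FTH1 element, 6 of 9 reads held the whole loop and 1 ended before it. Over all loci, 57 of 128 reads at the FTL element and 35 of 55 at the FTH1 element held the whole loop, whereas 44 and 4 ended before it. The window of FTL has 3 exact matches in the genome and that of FTH1 has 7, whereas each TFRC window has 1. Of the reads at the gene that overlap an element, 54 of 88 in FTL had a sequence with 1 exact match, as had 0 of 9 in FTH1 and 16 of 16 in TFRC.

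Of the other genes of iron handling, PCBP1 and NCOA4 had the most reads per kb of exon, and all were below FTH1 and FTL. At least 1 read was found in 72.8% of all protein-coding genes, against which the counts of listed genes with reads are to be read. Among other uptake genes 5 of 6 had reads (median 3.16 per kb), led by TFR2, the second transferrin receptor (7.70 per kb), CYBRD1, a ferric reductase (3.48), and SLC39A14, a metal ion transporter (3.47), and HFE, a partner of the transferrin receptor, had 0. TFR2 had 39 sense and 34 antisense reads, and was the 1 of 5 uptake genes with at least 10 reads that did not reach a 2-fold excess of sense reads. Among genes of ferritin loading and turnover 3 of 4 had reads (median 17.7), namely the iron chaperones PCBP1 (33.0) and PCBP2 (11.1) and the ferritinophagy receptor NCOA4 (24.3), whereas mitochondrial ferritin, FTMT, had 0.

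Among export genes 2 of 4 had reads (median 2.07), namely the iron exporter SLC40A1 (9.72) and the ferroxidase HEPH (4.15), and HAMP had 0 reads and CP had 0 sense and 10 antisense reads. All 4 sensing genes had reads (median 4.83), led by FBXL5 (11.5), IREB2 (5.09) and BACH1 (4.57). Of 10 genes of mitochondrial iron and heme 9 had reads (median 3.29), led by the iron importer SLC25A28 (17.3), ALAS1 (7.10) and SLC25A37 (6.38), and HMOX1 had 0. All 7 other mRNAs listed for an iron-responsive element had reads (median 4.89), led by SLC40A1 (9.72), CDC42BPA (6.60) and CDC14A (6.30). Of these 7, the pattern was matched in ALAS2 and SLC40A1, and 0 of 10 and 0 of 22 mRNA reads overlapped it. PCBP1 (33.0) and NCOA4 (24.3) lay above TFRC (20.4) by reads per kb of annotated exon, whereas on the chosen transcript of each gene TFRC had 55.0 reads per kb, PCBP1 33.0 and NCOA4 32.5.

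The label of the cells fitted their erythroid markers. All 9 erythroid genes had reads, against 72.8% of all genes (median 13.5 per kb, against 1.17 over all genes), led by HBG2 (341) and HBG1 (190), which encode fetal globin, and HBE1 (277), which encodes embryonic globin. Of 12 markers of other cell types 8 had reads, a share near that of all genes (median 0.218), among them EPCAM (3.29) and SNAP25 (1.23), and ALB, CD14, CD3E and CDH1 had 0.

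Fragments under 18 nt were counted in the numbers of alignments and in the shares with 1 read, and left out of the other values above, as many of them match more than 1 place in the genome. They made up 112 of 565 TFRC reads, 145 of 832 FTL reads and 89 of 211 FTH1 reads, and 41.1%, 30.3% and 6.74% of them had 1 exact match in the genome. The alignment with most reads in all of FTH1 was of this kind, a fragment of 14 nt in the 3′ UTR with 34 reads (RPKM 224) and 81 exact matches, and in TFRC a fragment of 11 nt with 16 reads had 203.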

How the data were processed

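Small RNA of 3 K562 batches was sequenced by the authors, aligned to GRCh37 (hg19) with Bowtie2 2.2.9 and kept when uniquely mapped, according to the methods and the submitters' processing notes. The deposited table pools the batches and gives for each alignment a count of reads and an RPKM, both computed by the authors; 0 columns of single batches were used. The deposited RPKM is the deposited count per length and per 54,140,681 reads. Each deposited count was divided by the number of alignments on the same strand within a total end shift of 3 nt, itself included (a whole multiple for 1,246,133 of 1,246,133 alignments with such a neighbour), which left 47,670,688 reads, 75.6% of them in alignments of 18 nt or longer.

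Genes, exons and pseudogenes were those of GENCODE release 44 mapped to GRCh37. Each gene had 1 chosen transcript (longest CDS, then longest), and reads were assigned to an element by their midpoint. Exact matches were counted on both strands of GRCh37, from which the printed sequences were read. No test was run. The text names the 3 genes, fragments among the 5 with most reads of each and the fragments at elements, the 3 leading pseudogenes, the 2 genes above and below each member, and the 3 highest genes and those at 0 in each list; fragments with most reads over all loci and PCBP2 were described as well. The value of 1 marker gene is not reported here. Members and lists were chosen with earlier results of these data known. Alternatives in length, counting, multiplicity, uniqueness and overlap were computed, and those of transcript and locus were added after the data were seen. Software was pandas 2.3.3, numpy 2.4.6, numba 0.67.0, scipy 1.17.1 and matplotlib 3.10.9 under Python 3.11.15. The counting of near neighbours, the positions on transcripts, the search for elements and the counting of exact matches were tested on simulated data. The choice to divide the deposited counts and the search over all loci were not tested in this way.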

Additional observations from a re-analysis of the deposited data

How the results depend on the processing

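With 32 of 53 values outside the main interval, the levels depended on how reads were counted. FTL stayed above FTH1 and TFRC in reads per kb under every choice below on the sense strand. FTH1 also stayed above TFRC in the values below, most of which divide TFRC by 17.376 kb of annotated exon. On the chosen transcripts of 5113 and 1203 nt, TFRC had 138 reads and FTH1 31 with at least 2 reads an alignment. With 1 exact match they had 279 and 47. Per kb of those transcripts FTH1 was not above TFRC under these choices. Values follow in the order TFRC, FTL, FTH1. Reads per kb were 24.8, 930, 103 with all lengths, 14.4, 552, 42.4 at 20 nt or longer, 40.6, 4788, 175 with deposited counts, 9.32, 537, 17.5 with at least 2 reads an alignment, 16.7, 566, 34.4 without the cluster of most reads, and 0.0576, 0, 0 on the antisense strand. With 1 exact match in the genome FTL had 340 and FTH1 28.9. With choices added after the data were seen, the chosen transcript gave 55.0 for TFRC and 88.1 for FTH1, and any locus gave 58.9, 1344, 481. The share at iron-responsive elements of TFRC moved under no alternative. That of FTL moved to 10.3% with at least 2 reads an alignment, 18.2% with 1 exact match, 17.8% without its largest cluster and 4.65% when 15 nt had to be shared with the window. That of FTH1 moved to 0% with at least 2 reads and 0% with 1 exact match, and to 15.8% without its largest cluster. A sequence within the FTH1 window cannot pass the filter for 1 exact match. The causes of these moves were not tested, and some choices left more reads and others fewer. No paired analysis was possible because the batches are pooled in 1 table, and for the same reason no batch could be left out in turn. FTH1 had the fewest mRNA reads at the gene (106), while 579 reads over all loci had its mRNA sequence.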
